A study of Mus musculus with 126 samples.

Results

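The 32 genes described here encode nuclear subunits of oxidative phosphorylation, 9 of complex I, 4 of complex II, 6 of complex III, cytochrome c, 5 of complex IV and 7 of the ATP synthase. They were chosen by symbol, and all 32 were found among the 48490 gene identifiers of a table of 126 single cells. The cells came from the endolymphatic sac of the mouse inner ear at embryonic day E14.5 (E for embryonic) and were copied by Smart-seq2, a plate protocol for full-length transcripts. The labels assign 93 cells to sacs heterozygous for a Sox9 allele, written Sox9Y440X/+ and called mutant here, and 33 cells to wild type. The labels name no Cre line and no treatment. They also name no animal, litter or plate, so each genotype is 1 sample, cells are not replicates and no test was made.

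Oxidative phosphorylation runs in the inner mitochondrial membrane. Complexes I and II take electrons from NADH and succinate, complex III passes them to cytochrome c, complex IV hands them to oxygen, and the ATP synthase uses the proton gradient that complexes I, III and IV build. In the endolymphatic sac, the mitochondria-rich cells are ion-transporting cells that depend on the transcription factor Foxi1 and carry the proton pump and the anion exchanger pendrin (Slc26a4). The genes of the mitochondrial chromosome, which encode the other core subunits, are listed at 0 in every cell across all 37 rows, so only the nuclear share of the complexes could be followed.

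Groups of cells were set by fixed gates. Foxi1 cells had Foxi1 at 10 FPKM or more, where FPKM is the number of fragments scaled to transcript length and to the mapped fragments of the cell. There were 11 of them among mutant cells and 5 among wild-type cells. The gate has no cell near it, since the lowest value inside was 28.2 FPKM and the highest outside 0.989 FPKM. The other epithelial cells had Epcam at 1 FPKM or more, 70 in the mutant and 27 in the wild type. The remaining 12 mutant cells and 1 wild-type cell fell in neither gate. Of these, 9 of 12 and 1 of 1 had at least 3 of 10 mesenchymal markers. A gene at 1 FPKM or more is called detected.

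Depth is unknown from FPKM, and the number of genes listed above 0 stands in for it. It had a median of 4376 in mutant and 5019 in wild-type epithelial cells, and of 5068 in mutant and 5983 in wild-type Foxi1 cells. Genotype also goes with a prefix in the cell titles and with sex-linked transcripts. All 93 mutant cells and 1 wild-type cell have the prefix P9, and 32 wild-type cells have P10. A Y-linked transcript was detected in 4 mutant cells and in 32 wild-type cells, and Xist in 81 mutant cells and 0 wild-type cells. Those 4 cells labelled mutant, 2 of them Foxi1 cells, go against the rest of their group. Genotype, prefix and sex of the embryos cannot be told apart.

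Promoter sequences of 23 of the 32 genes were found in RefSeq (build GRCm38.p6), 250 bases before to 50 after the start. Nuclear genes of oxidative phosphorylation are known as a textbook case of shared promoter motifs, among them those of NRF1 and of ETS factors such as GABPA, so 3 are shown for genes that recur below. Capitals mark the motif in each, GCATGCGC for NRF1 in the first pair and CCGGAAGT, here as its reverse complement ACTTCCGG, for ETS factors in Cox8a.
Uqcrc1, chr9:108936398-108936697, plus strand: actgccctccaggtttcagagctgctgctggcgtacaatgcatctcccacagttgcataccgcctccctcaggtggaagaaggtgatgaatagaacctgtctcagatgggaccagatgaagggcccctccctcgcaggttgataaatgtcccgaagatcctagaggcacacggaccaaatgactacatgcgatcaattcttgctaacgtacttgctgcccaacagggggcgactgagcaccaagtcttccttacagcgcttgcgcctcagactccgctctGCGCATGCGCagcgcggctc
Cycs, chr6:50566520-50566819, minus strand: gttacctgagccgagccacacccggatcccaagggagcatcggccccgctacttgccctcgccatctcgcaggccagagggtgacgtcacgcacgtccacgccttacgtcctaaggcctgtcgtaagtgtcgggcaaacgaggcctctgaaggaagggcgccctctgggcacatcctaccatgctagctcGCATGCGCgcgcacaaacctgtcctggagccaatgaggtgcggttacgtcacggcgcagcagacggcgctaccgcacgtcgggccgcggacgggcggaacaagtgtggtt
Cox8a, chr19:7217567-7217866, minus strand: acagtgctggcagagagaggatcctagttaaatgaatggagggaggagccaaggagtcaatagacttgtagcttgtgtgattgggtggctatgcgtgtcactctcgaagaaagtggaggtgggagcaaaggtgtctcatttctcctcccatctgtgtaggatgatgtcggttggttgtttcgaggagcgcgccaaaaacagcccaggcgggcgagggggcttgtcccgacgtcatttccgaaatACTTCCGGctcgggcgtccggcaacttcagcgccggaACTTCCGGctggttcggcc

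Uqcrc1 holds 2 overlapping NRF1 matches in 1 palindromic run, starting 30 and 32 bases after the start. Cycs holds 1 match, starting 60 bases before it. Cox8a holds 2 ETS matches, starting 6 bases before and 31 bases after the start. Counted on both strands, GCATGCGC was present in 3 of the 23 promoters (13.04%; Cycs, Sdhb and Uqcrc1), against 3.05% of 27025 genes with a promoter. CCGGAAGT was present in 4 (17.4%; Atp5h, Cox8a, Ndufs3 and Uqcrh), against 4.31% of genes. The motif AAGATGGC of YY1 was in 2 (8.70%; Atp5j and Ndufb8), against 3.19%. CCAAT, bound by NFY, was in 10 (43.5%), against 41.1%, and AAGGTCA of ERR and other nuclear receptors was in 3 (13.04%), against 5.38%. These matches describe letters in a window and no binding was measured.

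The 32 genes were abundant in the sac epithelium, and their order followed the complexes. Taking the mean of both genotypes for each gene as log2(FPKM + 1), the median level was 7.54 for the ATP synthase, 7.03 for complex IV, 6.06 for complex III, 5.93 for complex I and 4.53 for complex II. Cytochrome c (Cycs), the mobile electron carrier, was at 3.28. Atp5b, the catalytic beta subunit of the ATP synthase, was highest at 8.82, and Sdhc, a membrane anchor of complex II, lowest at 2.84. Both lie high among the genes detected in any epithelial cell, with Atp5b above 99.5% and Sdhc above 87.9% of them. FPKM is per length, so these levels can be set against each other between genes.

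Spread between cells was wide for the scarcer genes. Atp5b had a level of 8.71 ± 1.68 in mutant and 8.92 ± 0.56 in wild-type epithelial cells (SD over 70 and 27 cells). Cox8a, a small structural subunit of complex IV and the second highest gene, was detected in 70 of 70 mutant cells and had the SDs of 0.76 in mutant and 0.73 in wild-type cells. Ndufv1, the subunit of complex I that binds NADH, was detected in 34 of 70 mutant cells (48.6%, exact binomial interval 36.4 to 60.8%) and in 62.96% of wild-type cells. Its level was 3.10 ± 3.27 in mutant and 3.92 ± 3.19 in wild-type cells. Neighbouring complexes in the order overlap, since the genes of complex I reached from 3.51 to 7.58 and those of complex III from 3.99 to 8.28.

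**Figure D1:**
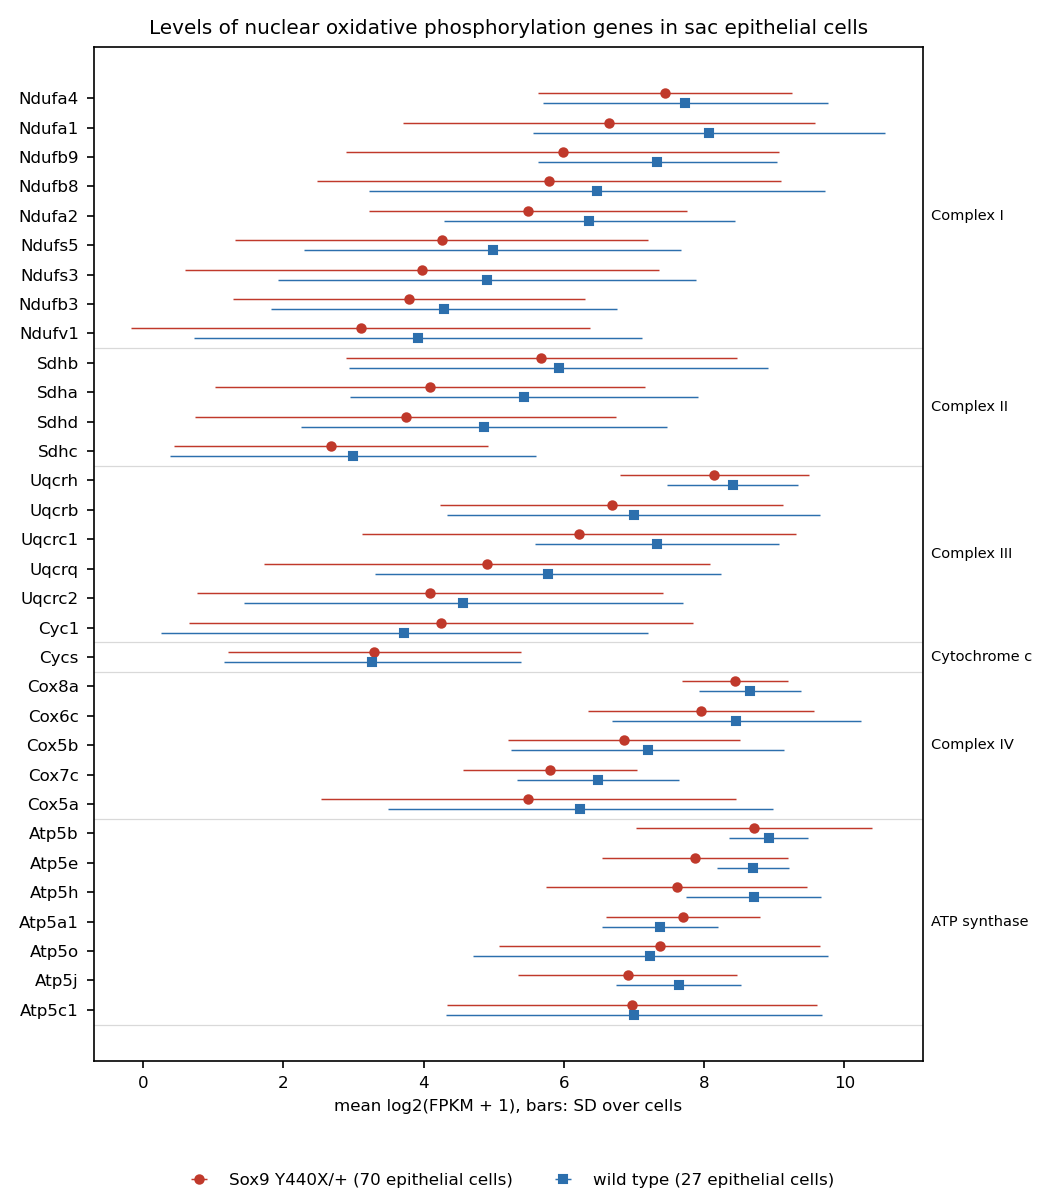
Mean level of each gene as log2(FPKM + 1) on the horizontal axis, with bars for the SD over cells, in 70 Sox9Y440X/+ (red circles, above) and 27 wild-type (blue squares, below) epithelial cells. ATP synthase genes sit near the top of the scale with Atp5b highest at 8.82 over both genotypes, and the bars of both genotypes overlap for every gene.

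Some of these values carry other loci. Ndufs5, an accessory subunit of complex I, has a near-identical pseudogene copy, at which 31.2% of their joint FPKM was listed, and the copies of Atp5h took 7.17%. In all, 8 of the 32 genes have an annotated pseudogene copy matching at 95% identity or more over at least 200 bases, and 11 share exon bases with another gene, such as Atp5j with Gabpa and Cox6c with Vps13b on the opposite strand. The use of strand in counting is not given in the sources used here, so reads of such pairs cannot be told apart and the values of these genes are uncertain.

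Foxi1 cells carried more of the transcripts of oxidative phosphorylation than the other epithelial cells of their genotype. To allow for level and depth, each gene's difference in mean log2(FPKM + 1) was taken relative to the median difference of other genes in the same of 20 bins of level. A gene is called higher at a relative difference of 1 or more, a doubling, and lower at -1 or less. Among mutant cells, Foxi1 cells minus the other epithelial cells, the 32 genes had a median of 1.25 (SD over genes 0.60). Of these, 31 lay above 0, 21 were called higher and 0 lower, beside 16.4% called higher and 17.4% called lower among all 3821 genes compared. Among wild-type cells the median was 0.97 (SD over genes 0.84), with 26 above 0, 15 called higher and 0 lower, beside 19% called higher and 19.1% called lower among 4829 genes. The background median is 0 in both comparisons. A gene was compared where it was detected in 50% of the cells of either group. Of the 32, 31 passed in both groups of mutant cells and 32 in both groups of wild-type cells. Ndufv1 passed in the mutant only through the Foxi1 cells and is 1 of the 21 called, whereas 401 of the 625 genes called higher among all 3821 passed in that way. In both genotypes 26 of the genes lay above 0, and 11 were called higher in both. For all compared genes the same overlap between genotypes was not counted, so the 26 and the 11 cannot be set against a background. The wild-type count rests in part on 1 cell, the Foxi1 cell with the highest score described below. Without that cell 9 genes were called higher, beside 17.7% of 5920 genes.

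The same held for the raw share of each cell's FPKM, although the ranges overlapped. The 32 genes took a median of 1.72% in mutant Foxi1 cells (0.494 to 4.81%), against 1.23% in the other mutant epithelial cells (0.120 to 2.10%). They took 2.14% in wild-type Foxi1 cells (1.57 to 4.67%), against 1.34% in the other wild-type epithelial cells (0.0377 to 2.49%). The FPKM sum by which the share is divided exceeded 1000000 in 2 mutant Foxi1, 2 mutant epithelial and 1 wild-type epithelial cells. The medians of that sum were 452733 to 495637 over the 4 groups. The part of such cells in the low ends of the ranges was not tested. A median of 31 of the 32 genes was detected in Foxi1 cells of either genotype, against 27 in mutant and 28 in wild-type epithelial cells.

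**Figure D2:**
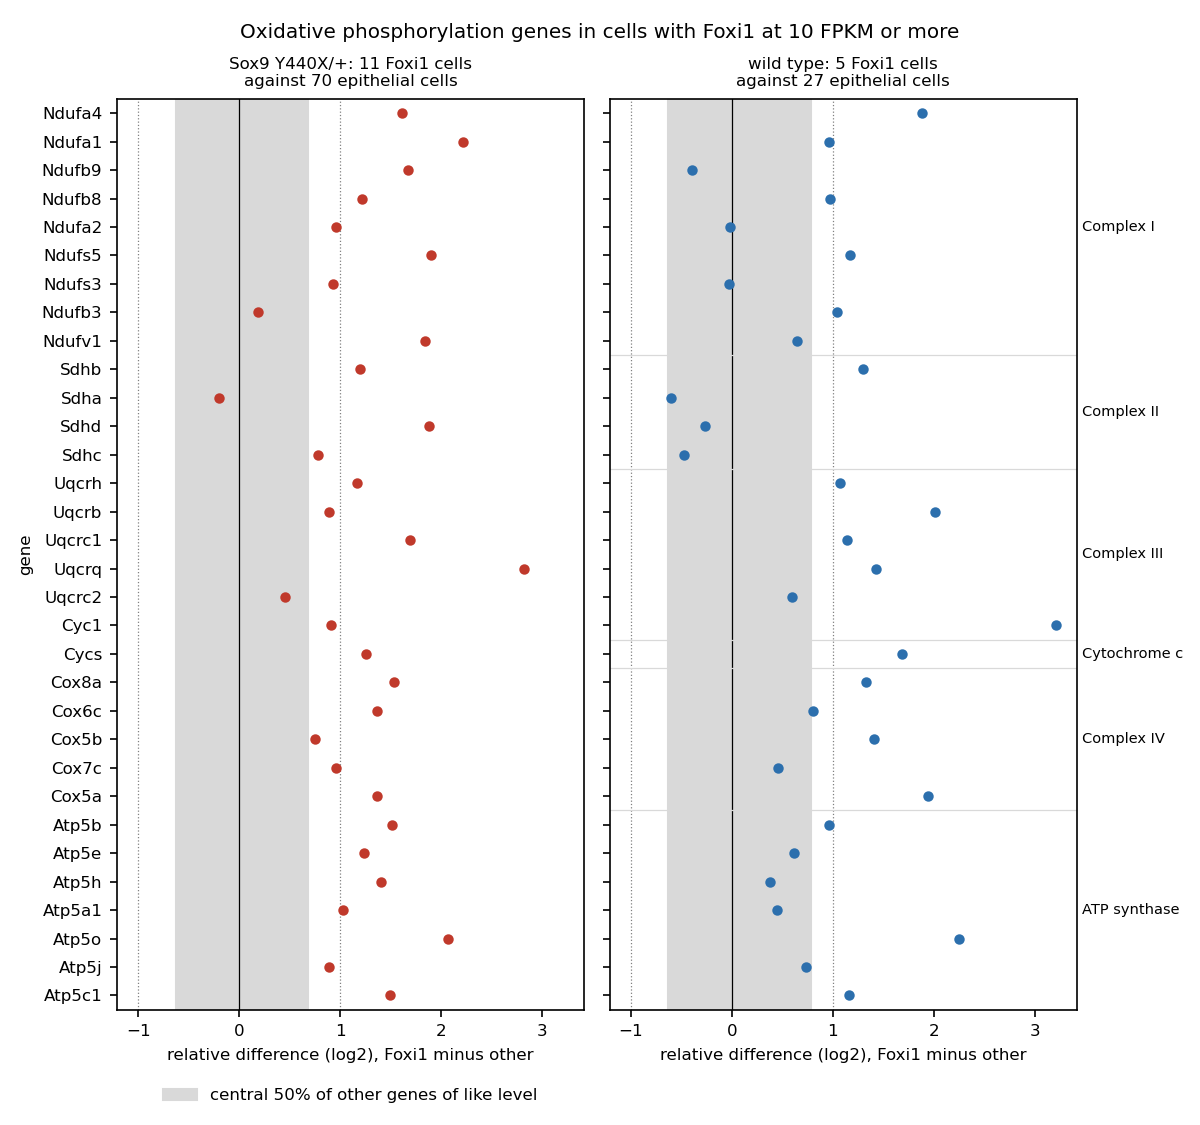
Relative difference (log2) of each gene, Foxi1 cells minus the other epithelial cells, in Sox9Y440X/+ (left) and wild-type cells (right). Dotted lines mark 1 and -1, and the grey band holds the central 50% of other genes in the same bins of level. In mutant cells 31 of 32 points lie above 0, and Sdha at -0.20 is the exception. In wild-type cells 26 lie above 0.

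Complex I genes had a median relative difference of 1.61 in mutant Foxi1 cells, with 6 of 9 called higher, and of 0.97 in wild-type Foxi1 cells, with 3 of 9 called higher. Ndufa1, an X-linked accessory subunit needed for assembly of the complex (chromosome X, 37187587 to 37191163 on mm10), had 249 FPKM at the lowest, 384 at the median and 997 at the highest mutant Foxi1 cell. The other mutant epithelial cells had 0, 188 and 1355 FPKM at the same points. The 5 wild-type Foxi1 cells had 404, 422, 435, 450.0 and 1111 FPKM, and the other wild-type epithelial cells reached from 0 to 1168 FPKM with a median of 418. All Foxi1 cells were well above 0, while both epithelial groups held cells at 0 and cells as high as any Foxi1 cell. The relative difference of Ndufa1 was 2.21 in mutant and 0.97 in wild-type cells. Ndufb3, another accessory subunit, was the lowest of complex I in the mutant comparison, at 0.19, and had 1.04 in the wild type. Ndufb9 had opposite signs, with 1.67 in mutant and -0.39 in wild-type cells. The other 6 (Ndufa2, Ndufa4, Ndufb8, Ndufs3, Ndufs5 and Ndufv1) had 0.93 to 1.90 in mutant and -0.03 to 1.88 in wild-type cells.

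Complex II was mixed. Sdha, the flavoprotein that oxidises succinate, had a relative difference of -0.20 in mutant and -0.61 in wild-type cells, the single gene below 0 in both. Its median was 61.8 FPKM in mutant Foxi1 cells and 45.99 FPKM in the other mutant epithelial cells, and it was listed at 0 in 3 of the 11 mutant Foxi1 cells. Sdhd, a membrane anchor, had 1.88 in mutant and -0.26 in wild-type cells. Its median was 143 FPKM in mutant Foxi1 cells, against 32.6 FPKM in the other mutant epithelial cells. In wild-type Foxi1 cells Sdhd had 0, 37.2, 63.6, 224 and 296 FPKM, against a median of 53.2 FPKM in the other wild-type epithelial cells, so the 5 values straddle that median. Sdhb, the iron-sulfur subunit, was called higher in both genotypes, at 1.19 in mutant and 1.30 in wild-type cells. Sdhc had 0.78 in mutant and -0.48 in wild-type cells.

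Complex III held the single gene with the largest difference in each genotype. Its median was 1.04 in mutant cells, with 3 of 6 called higher, and 1.28 in wild-type cells, with 5 of 6 called higher. Uqcrq, a small accessory subunit, led in the mutant with a relative difference of 2.81. It had 81.6, 334 and 726 FPKM at the lowest, median and highest mutant Foxi1 cell, against 0, 92.4 and 463 FPKM in the other mutant epithelial cells. In wild-type Foxi1 cells Uqcrq had 58.7, 135, 283, 295 and 384 FPKM, against a median of 86.9 FPKM and a maximum of 355 FPKM in the other wild-type epithelial cells, with a relative difference of 1.43. It was detected in all Foxi1 cells of both genotypes, and in 52 of 70 mutant epithelial cells. Cyc1, the catalytic cytochrome c1, led in the wild type with 3.20. The 5 wild-type Foxi1 cells had 44.3, 91.4, 258, 384 and 744 FPKM of Cyc1, against a median of 66.1 FPKM in the other wild-type epithelial cells. It was detected in 5 of 5 wild-type Foxi1 cells, against 55.6% of the other wild-type epithelial cells. In mutant cells Cyc1 had a relative difference of 0.91 and was not detected in 3 of 11 Foxi1 cells. Uqcrc2, a core protein, was lowest of the complex, at 0.46 in mutant and 0.59 in wild-type cells. Uqcrh, the hinge protein, had 1.17 in mutant and 1.07 in wild-type cells, Uqcrc1 1.69 in mutant and 1.14 in wild-type cells, and Uqcrb 0.88 in mutant and 2.01 in wild-type cells.

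Cytochrome c was called higher in Foxi1 cells of both genotypes, and so were 3 of the 5 complex IV genes in each. Cycs had 3.77, 49.8 and 208 FPKM at the lowest, median and highest mutant Foxi1 cell, against a median of 12.97 FPKM in the other mutant epithelial cells. In wild-type Foxi1 cells Cycs had 7.98, 33.98, 90.5, 98.5 and 171 FPKM, against a median of 15.5 FPKM in the other wild-type epithelial cells. 1 of the 5 cells thus lay below that median. The relative difference of Cycs was 1.26 in mutant and 1.69 in wild-type cells. Cox8a had 330.3, 899.7 and 2127 FPKM in mutant Foxi1 cells, against 81.9, 361 and 828 FPKM in the other mutant epithelial cells. The 5 wild-type Foxi1 cells had 595, 648, 762, 1239 and 2716 FPKM of Cox8a, all above the epithelial median of 415 FPKM. Its relative difference was 1.54 in mutant and 1.32 in wild-type cells. Cox5b, at 0.75 in mutant and 1.41 in wild-type cells, was the lowest of complex IV in the mutant. Cox5a, Cox6c and Cox7c had 0.96 to 1.37 in mutant and 0.46 to 1.94 in wild-type cells.

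ATP synthase genes differed more in the mutant, with a median of 1.40 and 6 of 7 called higher, than in the wild type, with 0.74 and 2 of 7. This contrast between genotypes rests on 11 and 5 cells and was not tested. It also depends on the bins. In the mutant all but Atp5j were set against a bin median of -0.06, beside 0.66 over all compared genes outside the list. In plain differences the ATP synthase median was 1.37 in the mutant, below the 1.52 of the 32 genes. In the wild type it was 0.83, below 1.21. Atp5o, the stalk subunit OSCP, was highest in both genotypes, at 2.06 in mutant and 2.25 in wild-type cells. It had 286, 658 and 2139 FPKM in mutant Foxi1 cells, against 0, 258 and 777 FPKM in the other mutant epithelial cells. In wild-type Foxi1 cells it had 406, 469.98, 473, 1066 and 1806 FPKM, against a median of 239.6 FPKM in the other wild-type epithelial cells. The Atp5o locus of the table overlaps 3 other annotated genes, which makes its level uncertain. Atp5b had 543, 977 and 2413 FPKM in mutant Foxi1 cells, against 0, 518 and 1696 FPKM in the other mutant epithelial cells, and a relative difference of 1.51, beside 0.96 in wild-type cells. Atp5j, coupling factor F6, was lowest at 0.89 in the mutant and had 0.74 in the wild type. Atp5a1, Atp5c1, Atp5e and Atp5h had 1.03 to 1.49 in mutant and 0.38 to 1.16 in wild-type cells. For every gene given with its FPKM here, the range of Foxi1 cells overlapped that of the other epithelial cells.

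A score per cell, the mean of the 32 genes less that of other genes in the same bins of level, showed how far single cells separated. It was -0.92, 0.77 and 1.91 at the lowest, median and highest of the 11 mutant Foxi1 cells, and -1.74, -0.73 and 0.44 in the other mutant epithelial cells. In the wild type the 5 Foxi1 cells scored -0.65, -0.48, 0.01, 0.77 and 1.46, and the other epithelial cells -1.38, -0.65 and 0.39 at the lowest, median and highest. In the mutant 10 of 11 and in the wild type 5 of 5 Foxi1 cells lay above the median of their epithelial group. The lowest wild-type one, at -0.647, was hardly above that median of -0.652. Above the maximum of the epithelial group lay 6 of 11 mutant and 2 of 5 wild-type Foxi1 cells.

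**Figure D3:**
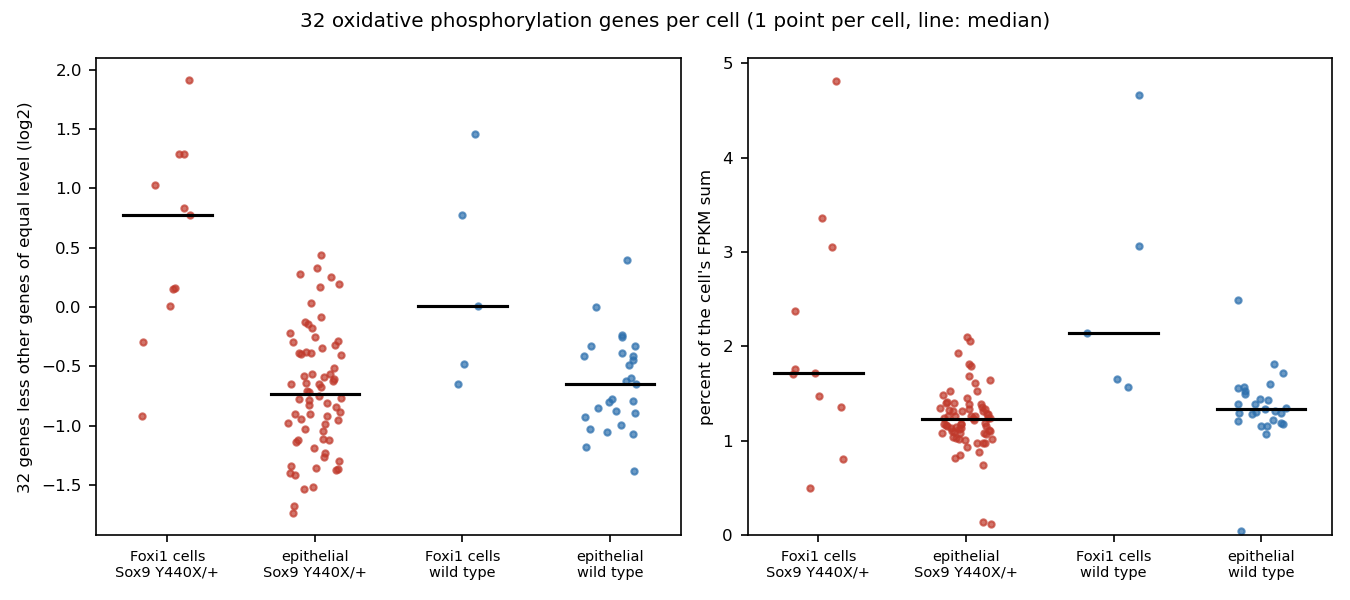
Each point is 1 cell and each line a median. The left panel shows the mean log2 level of the 32 genes less that of other genes of equal level, the right panel their percent of the cell's FPKM sum. In both genotypes Foxi1 cells have the higher median, 0.77 against -0.73 in Sox9Y440X/+ cells on the left, while some Foxi1 cells lie within the epithelial range.

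The lowest scores among Foxi1 cells belonged to those with the fewest other markers of mitochondria-rich cells. Of 10 such markers, 9 of 11 mutant and 3 of 5 wild-type Foxi1 cells had 4 or more, and 0 of the 70 mutant and 0 of the 27 wild-type epithelial cells had more than 2. The other 2 mutant and 2 wild-type Foxi1 cells had Foxi1 and Car2 alone, and Car2, a carbonic anhydrase, was also detected in 37 of the 70 mutant epithelial cells. This division was made after the values had been seen. The 9 mutant cells scored 0.01 to 1.91 and the 3 wild-type cells 0.01 to 1.46. The 2 mutant cells with Foxi1 and Car2 alone scored -0.92 and -0.30, and the 2 wild-type ones -0.65 and -0.48.

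Compared by gene, the cells with 3 or more markers had a median relative difference of 1.59 in the mutant, with 27 called higher beside 20.1% of 4062 genes, and of 1.27 in the wild type, with 23 called higher and 2 lower beside 23.7% and 25.1% of 5228 genes. The cells with Foxi1 and Car2 alone had -0.23 in the mutant, with 2 called higher and 6 lower beside 17.4% and 21.8% of 6044 genes. They had -0.06 in the wild type, with 3 called higher and 6 lower beside 18.5% and 20.3% of 7353 genes. The counts called lower are near these shares, a mean over 2 cells is imprecise, and the values describe these cells only. By its markers, the name mitochondria-rich applies to the 12 cells with 4 or more of them. For the 4 others the markers do not settle the name. Their Foxi1 reached 147 FPKM in the wild type, while the lowest of the 12 cells had 83.6 FPKM. The gate is therefore called by its gene here.

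Foxi1 cells had 5 to 7 of 7 epithelial markers, and some had markers of other cell types. Of the 10 mesenchymal markers, 5 were detected in at least 1 mutant and 3 in at least 1 wild-type Foxi1 cell, with up to 4 in 1 mutant and up to 3 in 1 wild-type cell. Dcn was detected in 7 of 11 mutant and 3 of 5 wild-type Foxi1 cells, against 0 of 70 mutant and 1 of 27 wild-type epithelial cells, while Col3a1, Pdgfra, Pdgfrb, Twist2 and Prrx1 were detected in none of the Foxi1 cells. None of the 6 erythroid markers was detected in Foxi1 cells. Of the 4 endothelial markers 0 were detected in mutant and 1 in wild-type Foxi1 cells, and of the 4 immune markers 1 in mutant and 0 in wild-type ones. Of the 4 glial and neural crest markers, 2 were detected in mutant and 1 in wild-type Foxi1 cells. That shared gene, Erbb3, was detected in 2 of 11 mutant and 3 of 5 wild-type Foxi1 cells, against 24 of 70 mutant and 13 of 27 wild-type epithelial cells. The summed FPKM of the mesenchymal list was 0 to 1363 in mutant Foxi1 cells and 0 to 94.7 in the other mutant epithelial cells, and 0 to 1575 in wild-type Foxi1 cells and 0 to 1095 in the other wild-type epithelial cells. The part of these transcripts in the result was not tested. Without the cells that had 3 or more mesenchymal or erythroid markers, the median was 1.29 in the mutant and 0.88 in the wild type. Then 21 and 15 genes were called higher, beside 16.5% of 4172 and 18.5% of 6200 genes. Among cells with 5000 to 6500 listed genes, which brings depth closer, the median was 1.001 in the mutant and 0.67 in the wild type. With the 4 doubtful mutant cells left out, 2 on each side, it was 1.012 in the mutant, with 17 called higher beside 16.8% of 3690 genes.

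Neighbouring pathways were read from fixed lists of their genes. In mutant Foxi1 cells, 12 of 16 genes of the tricarboxylic acid cycle and pyruvate dehydrogenase were called higher and 0 lower, with a median of 1.58. Idh3a, the catalytic subunit of NAD-dependent isocitrate dehydrogenase, led with 3.09. It is 1 of 4 genes of the list that passed the filter only through the Foxi1 cells, and 2 of these 4 are among the 12 called. The wild-type median of that list was 0.29, with 5 of 16 called higher, and 4 of its genes also passed through the Foxi1 cells alone. Of the 27 other compared genes of complex I, 15 were called higher in the mutant (median 1.22), led by Ndufa9 at 3.43, and 10 of 28 in the wild type (median 0.42). Among those called, 1 in the mutant and 2 in the wild type passed the filter only through the Foxi1 cells. The other genes of complexes III, IV and V had 9 of 18 called higher and 1 lower in the mutant (median 0.997) and 7 of 18 higher in the wild type (median 0.84). That 1 gene was Cox7a2l, a factor in the joining of complexes III and IV, at -1.57.

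Many genes that build rather than form the complexes passed the filter through 1 group of cells alone. Of 48 compared mitochondrial ribosomal proteins, 30 passed in the mutant only through the Foxi1 cells, and these hold 10 of the 11 called higher. In the wild type 26 of 56 passed in that way and hold 15 of the 17 called higher. Among assembly factors 6 of 13 in the mutant and 6 of 15 in the wild type passed through Foxi1 cells alone, so neither list is read. Carriers and porins, all 7 of which passed in both groups, had a median of 0.63 in the mutant and 0.88 in the wild type. Cytosolic ribosomal proteins lay on the other side of 0, at -0.19 in the mutant with 63 of 78 below 0 and at -0.18 in the wild type with 59 of 78 below 0. Only 2 biogenesis regulators passed the filter in the wild type, and 0 in the mutant, so that list is not read.

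Between genotypes the 32 genes showed no shared direction. In epithelial cells, mutant minus wild type, the median relative difference was -0.11 (SD over genes 0.49), with 13 genes above and 19 below 0. None of the 32 was called higher or lower, beside 8.26% called higher and 8.73% called lower among 3209 genes. The plain differences had a median of -0.44 over the compared genes outside the list, in the direction of the lower number of listed genes in mutant cells, and of -0.59 over the 32. The sign of the small group value was not stable. It was 0.11 over the genes without copies or overlapping exons, -0.25 among Aldh1a1-dominant cells and 0.10 among Aldh1a3-dominant cells, gates explained below. With the doubtful mutant cells and the wild-type cell of prefix P9 left out it was -0.15, with 1 gene called lower, beside 9.3% of 3408 genes.

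Complex I lay mostly below 0 and the ATP synthase on both sides, beside 1596 above and 1602 below 0 among all 3209 genes. Complex I had 8 of 9 genes below 0 and a median of -0.34, the ATP synthase 4 of 7 above 0 and a median of 0.23. Ndufa1 was lowest at -0.88, with a median of 188 FPKM in mutant cells, against 418 FPKM in wild-type cells. Being X-linked, it is a gene for which the sex-linked difference between the groups could not be separated from genotype. Ndufb9, an autosomal accessory subunit, was nearly as low at -0.84, with medians of 128 FPKM in mutant and 247 FPKM in wild-type cells. It was detected in 57 of 70 mutant and in all wild-type cells. Ndufa4, at 0.27, was the single complex I entry above 0, and it is now usually assigned to complex IV.

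Cyc1 was highest of all at 0.98, with medians of 59.2 FPKM in mutant and 66.1 FPKM in wild-type cells, so its medians and its relative difference point in different directions. Atp5a1, the alpha subunit of the ATP synthase (chromosome 18), had 0.88, with medians of 221 FPKM in mutant and 164 FPKM in wild-type cells, and was detected in every epithelial cell. Plain means were higher in mutant cells for 4 of the 32 genes, Atp5a1, Cyc1, Atp5o and Cycs. Sdha had -0.75 and Sdhd -0.74, with medians of 45.99 and 32.6 FPKM in mutant cells, against 62.6 and 53.2 FPKM in wild-type cells. Uqcrc1, the core protein whose promoter is shown above, had -0.60. Cox8a lay at 0.22 and Cox5a at -0.38, the ends of complex IV. The plain differences of the genes named in the last 2 paragraphs were all smaller than their SD over cells in either genotype.

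Other lists of the mitochondrion gave values on both sides. The other complex I genes had a median of -0.41, with 20 of 26 below 0 and 3 called lower, Ndufs8 being lowest at -1.39. All 26 passed the filter in both genotypes. The other genes of complexes III, IV and V, which include those of the ATP synthase, had a median of -0.01. Of these 18 genes, 6 lay above and 11 below 0. Of 31 compared mitochondrial ribosomal proteins 13 passed only through the wild-type cells, 4 of the 5 called lower among them, as did 2 of 9 assembly factors, so these lists are not read. The tricarboxylic acid cycle list had 0.20, with 2 of 14 called higher, 1 of which passed the filter only through the mutant cells, and 1 lower. Its ends were Pdhb at 1.41 and the X-linked Pdha1 at -1.44, partner subunits of 1 enzyme. Carriers and porins had 0.38. Cytosolic ribosomal proteins, which enter the bin medians here too, had -0.04.

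The epithelium of the sac holds cells that differ in which retinaldehyde dehydrogenase gene they express. Cells were called Aldh1a1-dominant or Aldh1a3-dominant where the gene was detected and at least 2 times as high as the other, 32 and 34 cells in the mutant and 9 and 15 in the wild type. In mutant cells, Aldh1a1-dominant minus Aldh1a3-dominant, the 32 genes had a median relative difference of -0.06 (SD over genes 0.65). Of these, 2 were called higher, Ndufs5 and Ndufa1, and 1 lower, Ndufb9 at -1.19, beside 15.6% called higher and 12.1% called lower among 3182 genes. In wild-type cells the median was 0.33 (SD over genes 0.98), with 9 called higher and 3 lower, beside 20.2% called higher and 19.6% called lower among 4218 genes. In both genotypes 9 genes lay above 0 and 5 below 0, so the remaining 18 had opposite signs.

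Among those above 0, 3 complex I genes stood above 0 in both genotypes by over 0.7. Ndufs5 had 1.62 in mutant and 1.02 in wild-type cells, Ndufa1 1.57 and 1.25, and Ndufb3 0.79 and 1.22. Ndufs5 was detected in 90.6% of mutant Aldh1a1-dominant cells and 58.8% of mutant Aldh1a3-dominant cells. Ndufs5 and Ndufb3 each have 1 pseudogene copy, and both took the other sign in wild-type cells under 1 alternative, Ndufs5 at -0.25 on the log2 ratio of mean FPKM and Ndufb3 at -0.040 among cells with 3000 to 5000 listed genes. Other genes separated in wild-type cells alone by value. The 3 called lower were Ndufs3, a core subunit, with -2.67 there and -0.11 in mutant cells, Ndufv1 with -1.59 and 0.06, and Sdhb with -1.41 and -0.35. Ndufs3 was detected in 66.7% of wild-type Aldh1a1-dominant and 93.3% of wild-type Aldh1a3-dominant cells. Uqcrb, an accessory subunit of complex III, had 1.94 there and 0.50 in mutant cells, and Cox5a 1.66 there and -0.73 in mutant cells. With the doubtful mutant cells left out the mutant median was 0.003. With 9 and 15 cells the wild-type values are the less precise, and the difference between genotypes was not tested.

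**Figure D4:**
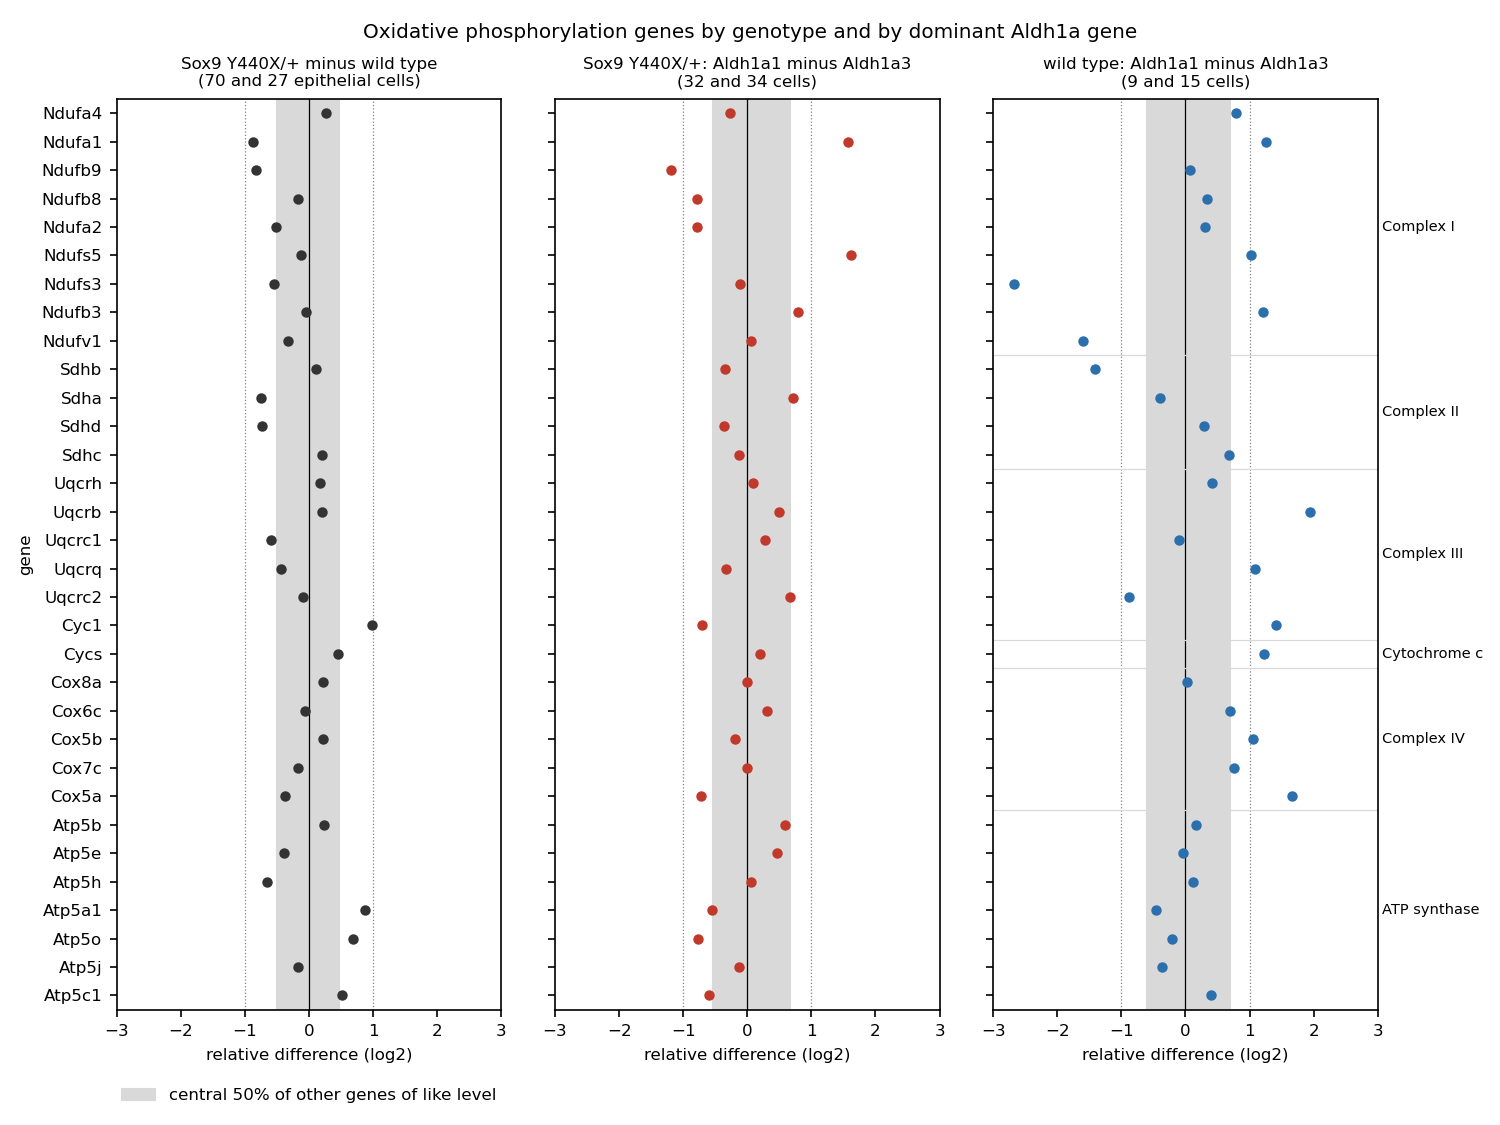
Relative difference (log2) of each gene in 3 comparisons: Sox9Y440X/+ minus wild-type epithelial cells (left), Aldh1a1-dominant minus Aldh1a3-dominant Sox9Y440X/+ cells (middle) and the same in wild-type cells (right). Dotted lines mark 1 and -1, and the grey band holds the central 50% of other genes in the same bins. On the left no point passes a dotted line, and in the middle 3 do.

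Within the epithelium the 32 genes did not vary together from cell to cell to a degree worth reading. Over 70 mutant and 27 wild-type epithelial cells, the median Spearman correlation of pairs was 0.04 and 0.03 within complexes, 0.05 and 0.03 between complexes, and 0.03 and 0.02 between other genes of like level. The cells differ in depth, and the per-cell score had a correlation with listed genes of 0.36 in mutant and 0.38 in wild-type cells. The 10 genes outside the list most like the score over 97 cells were Ube2j2, Mdm2, Emx2, Idh3b, Erdr1, Exosc2, Purb, Rbmx, Sumo2 and Haghl. Their Pearson correlations lay between 0.32 and 0.38. In sparse values of this kind such correlations are a description and no finding.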

How the data were processed

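Single cells were copied by Smart-seq2, per the labels' protocols. The authors deposited FPKM values, genes in rows and cells in columns. Cufflinks, HTSeq, HISAT2 and SAMtools 0.1.18 appear in the submitters' processing notes, as does build mm10. Of their roles, the annotation and the strand setting, the sources used here say nothing. Low values did not fall on whole-read steps, so depth is unknown and no count model was used. Identifiers with several rows (49) were summed. Coordinates are those of the table, counted from 1.

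Levels are means of log2(FPKM + 1). A gene was compared if detected (1 FPKM) in 50% of the cells of either group, and all 32 genes passed in all 5 comparisons. Each difference was taken less the median of compared genes outside the list in the same of 20 equal bins of mean level, since the genes were to be set against others of like level. For scarce genes, the pseudocount of 1 makes differences smaller. Shares of cells carry exact Clopper-Pearson intervals (95%), for counting error alone. Doublets were not called, for want of counts, but an alternative drops cells listing over 6000 genes. The procedure was tested on simulated data, with genes drawn independently and with larger groups than the Foxi1 cells. How calls behave at the cell numbers of the Foxi1 groups was not tested.

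The members, lists and gates were chosen with earlier results of these data known. Per complex, the genes described in full are those with the highest and lowest level and relative difference by genotype and in mutant Foxi1 cells; of each other list its ends may be named, and values of other members given beside them were chosen after they were seen. The score per cell and the division by markers were added after values had been seen. The score's other genes were those detected in 50% of any of the 4 groups. An earlier form used genes of the epithelial cells alone and gave higher medians, 1.45 in mutant and 0.80 in wild-type Foxi1 cells, against -0.21 and -0.09 in the epithelial cells.

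Exon overlaps and pseudogene copies (blastn 2.17.0) come from GENCODE vM21, in which 24 of the 32 genes have the same coordinates. Python 3.11.15, numpy 2.4.6, pandas 2.3.3 and scipy 1.17.1 were used.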

Additional observations from a re-analysis of the deposited data

How the results depend on the processing

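No paired analysis was possible because no result comes from a test and the labels number no replicates shared between groups. The medians of the 32 genes kept their sign in every alternative tried for Foxi1 cells except the cells with Foxi1 and Car2 alone. Over all alternatives the median was -0.23 to 1.59 in mutant and -0.06 to 1.27 in wild-type Foxi1 cells, -0.25 to 0.14 by genotype, and, Aldh1a1 minus Aldh1a3, -0.17 to 0.04 in mutant and 0.03 to 0.48 in wild-type cells. Leaving out 1 Foxi1 cell at a time gave 1.16 to 1.44 in the mutant, with 21 to 27 called higher beside 15.7 to 17.8% of all compared genes. In the wild type it gave 0.71 to 1.06, with 9 to 18 called higher beside 17.7 to 19.5%. In each, 0 were called lower. Leaving out 1 wild-type Aldh1a1-dominant cell gave 0.20 to 0.36. Then 6 to 10 were called higher and 2 to 4 lower, beside 17.8 to 19.4% and 18.9 to 20.4% of all compared genes.

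Counts of called genes moved as follows, and the cause was not tested. Percentages in brackets are the shares of all compared genes called under the same alternative. By genotype (0 higher and 0 lower as reported), a pseudocount of 0.1 gave 1 higher and 5 lower (16.4% and 17%). Rescaling each cell to 1000000 gave 2 lower (11.7%), and 3000 to 5000 listed genes gave 2 higher and 2 lower (14.7% and 14.3%). Aldh1a1-dominant cells gave 1 higher and 5 lower, beside 715 higher and 574 lower among all 3970 compared genes. Aldh1a3-dominant cells gave 2 higher and 3 lower (12.8% and 15.1%). Up to 6000 listed genes (10.1%), cells without 3 mesenchymal or erythroid markers (9%), and cells without doubtful labels (9.3%) each gave 1 lower. In mutant Foxi1 cells (21 higher, 0 lower), subtracting the median of all compared genes instead of that of the bin left 13 higher (17.6%). Of the 17 genes without copies or overlaps, 12 were called higher (16.4%), and 3000 to 5000 listed genes gave 1 lower (23.4%). In wild-type Foxi1 cells (15 higher, 0 lower), subtracting that median gave 9 higher (19.8%). Of the 17 genes without copies or overlaps, 9 were called higher here (19%), and up to 6000 listed genes gave 1 lower (23.8%). The 3000 to 5000 window gave no wild-type value, since all 5 cells list more genes. Cells with 3 or more markers gave 23 higher and 2 lower in the wild type (23.7% and 25.1%). Cells with Foxi1 and Car2 alone gave a median of -0.23, 2 higher and 6 lower in the mutant, beside 17.4% and 21.8% of all genes, and -0.064, 3 higher and 6 lower in the wild type, beside 18.5% and 20.3%.

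For Aldh1a1 minus Aldh1a3 in mutant cells (2 higher, 1 lower), a pseudocount of 0.1 gave 4 higher, beside 23.1% of all compared genes. A pseudocount of 10 gave 1 higher and 0 lower (5.44% and 2.23%), and a filter at 90% of cells gave 0 lower (8.84%). The log2 ratio of mean FPKM gave 0 higher and 0 lower (8.83% and 6.29%), and 3000 to 5000 listed genes gave 4 lower (15.8%). In wild-type cells (9 higher, 3 lower), a pseudocount of 10 gave 1 higher and 1 lower (6.45% and 7.3%), and the 90% filter 1 lower (10.2%). The log2 ratio of mean FPKM gave 1 higher and 1 lower (13.3% and 14.7%), and 3000 to 5000 listed genes 9 lower (30.3%).

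Called genes that took the other sign did so mostly in cells with Foxi1 and Car2 alone. In the mutant these were Cox5a (-4.77), Sdhd (-2.25), Cycs (-1.08), Atp5c1 (-0.97), Ndufs5 (-0.56), Sdhb (-0.53), Uqcrh (-0.42), Cox6c (-0.39), Atp5h (-0.24) and Ndufb8 (-0.16), and in the wild type Uqcrq (-0.33), Ndufs5 (-0.29), Cox5b (-0.25) and Cycs (-0.12). Elsewhere Ndufb8 was -0.057 in mutant Foxi1 cells at 5000 to 6500 listed genes, and in wild-type Aldh1a1 minus Aldh1a3, Ndufs5 was -0.25 on the log2 ratio of mean FPKM and Ndufb3 -0.040 at 3000 to 5000 listed genes. The alternatives on markers, doubtful cells, copies, 5000 to 6500 listed genes and single Aldh1a classes were added after the data had been seen.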

Other observations

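Cells outside both gates also had a high content of these transcripts. The score per cell of the 32 genes was -0.66, 0.22 and 0.92 at the lowest, median and highest of the 12 mutant cells with Epcam under 1 FPKM and Foxi1 under 10 FPKM, and 1.02 in the 1 wild-type cell. Most of these cells carry mesenchymal markers, with a median of 6 of 10 detected in the mutant ones. Their share of FPKM in the 32 genes had a median of 1.62%, against 1.23% in mutant epithelial cells and 1.72% in mutant Foxi1 cells. All 12 mutant cells thus scored above the median of the mutant epithelial cells, -0.73, and the highest above their maximum of 0.44. The median of the 12 was below the 0.77 of mutant Foxi1 cells. The wild-type cell lay between the median of 0.01 and the maximum of 1.46 of the wild-type Foxi1 cells. A high score was therefore not particular to the Foxi1 cells. The wild-type cell had all 10 cycling markers.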
